A study of Mus musculus with 12 samples.

Results

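The 35 genes described here encode the proteins of glucose uptake, glycolysis, glycogen storage and lactate handling, and were measured in the prelimbic (PL) and infralimbic (IL) parts of the mouse prefrontal cortex after fear conditioning and dexmedetomidine. They were chosen by symbol, as members of these pathways, with earlier results of these data known. All 35 were found among the 55421 genes of the deposited count table, and all 35 passed the filter on low counts that left 20015 genes for testing. The series holds 12 polyA RNA libraries from the brains of wild-type male C57BL/6 mice aged 10 to 12 weeks. Every mouse had 3 tone and foot shock pairings at 0.7 mA, and tissue was taken 2 h after training. The 4 groups have 3 libraries each: PL Dex, PL saline, IL Dex and IL saline. Dex is dexmedetomidine, a sedative that activates alpha2 adrenergic receptors, given into the peritoneum at a dose of 40 µg per kg of body weight and a volume of 10 ml per kg. Saline is the same volume of the vehicle. The comparisons address whether the drug changed transcript levels in either region and how the regions differ. No untrained or uninjected mice are among the groups, so conditioning and an injection are shared by all 12 libraries.

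As background, glucose enters brain cells through the transporters of the SLC2A family, is phosphorylated by hexokinases, and is split by glycolysis into pyruvate. Pyruvate is either oxidised in mitochondria, an entry that pyruvate dehydrogenase kinases hold back, or reduced to lactate by lactate dehydrogenase. In cortex, glycogen is stored mainly by astrocytes, and lactate made there can leave through monocarboxylate transporters and be taken up by neurons, a route that has been tied to memory formation in rodents.

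In brief, none of the 35 genes passed the test for a Dex effect in either region, whereas 6 differed between PL and IL after Dex and 9 after saline, where 7.34% and 18.7% of all genes tested did. Hkdc1, which encodes a hexokinase, was 6.26-fold higher in PL than in IL after Dex and 4.57-fold higher after saline. Together with Hk1, Pdk1 and Slc16a7 it makes up the 4 members called higher in PL in both of these comparisons (2.93% of all genes tested). The comparisons share no library, but both come from the same fit with a joint estimate of the spread. Totals ran from 5419187 to 16530596 counts per library, and the IL saline libraries were the deepest, with 10603069 to 16530596 counts. Levels are CPM, counts scaled to the TMM-adjusted library size. Each label carries a batch, 1 to 3, the same as the sample's own number. The labels do not say whether libraries of a group came from separate mice, and describe extraction of prelimbic tissue for all samples although 6 titles name IL. Defining markers of cortical excitatory neurons, astrocytes and oligodendrocytes were detected in all groups. Because these are bulk samples, fewer cells of a type and less RNA per cell cannot be told apart.

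The counting did not use strand and some members have near-identical copies, which makes their own levels uncertain. Of all 75-base windows in the exons, a share of 67.5% in Pgk1, 65.4% in Eno1, 40.6% in Pgam1, 25.3% in Pfkfb2, 22.8% in Gapdh, 19.6% in Pkm and 16.8% in Ldhb also occurs in another gene, mostly processed pseudogenes. Slc16a3 overlaps the exons of Csnk1d on the other strand, and had 460 counts in all libraries together against 12614 for Csnk1d. Pfkm with Senp1, Pfkp with Pitrm1, Aldoa with Fam57b, Gapdh with Iffo1, Gys1 with Ruvbl2 and Pfkfb2 with Yod1 overlap in the same way.

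Hkdc1 and Hk1 lie next to each other on the minus strand of chromosome 10, Hkdc1 at chr10:62383137-62422491 and Hk1 at chr10:62268855-62379908 (GRCm38), with 3228 bases between them. Their promoter windows are shown because they are neighbours that were both higher in PL. Beside them are those of Pdk1, the other such gene with a window in the RefSeq table. Ldha was added as an example, picked from several members called in only 1 of the region comparisons. Each window runs from 250 bases before to 50 bases after an annotated start, read 5′ to 3′ on the gene's strand, from RefSeq on GRCm38.p6. Capitals mark ACGTG, a form of the core of the hypoxia response element, or its reverse complement CACGT. The other form of that core, GCGTG, is not marked or counted. It also occurs in windows shown here, those of Hkdc1 and Pdk1 among them. The palindrome CACGTG, the E-box core, holds both and is counted on each strand.
Hkdc1, chr10:62422408-62422707, minus strand: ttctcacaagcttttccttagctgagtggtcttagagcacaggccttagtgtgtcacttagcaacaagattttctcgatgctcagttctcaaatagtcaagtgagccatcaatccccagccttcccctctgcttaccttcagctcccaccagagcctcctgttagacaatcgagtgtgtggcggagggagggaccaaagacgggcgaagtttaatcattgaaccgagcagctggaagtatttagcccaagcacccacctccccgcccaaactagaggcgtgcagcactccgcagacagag
Hk1, first window, chr10:62379859-62380158, minus strand: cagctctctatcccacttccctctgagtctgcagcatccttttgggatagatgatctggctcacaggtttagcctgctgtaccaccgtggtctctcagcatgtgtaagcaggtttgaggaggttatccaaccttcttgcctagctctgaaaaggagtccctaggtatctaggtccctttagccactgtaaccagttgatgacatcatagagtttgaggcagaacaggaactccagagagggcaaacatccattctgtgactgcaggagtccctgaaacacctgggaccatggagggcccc
Hk1, second window, chr10:62340372-62340671, minus strand: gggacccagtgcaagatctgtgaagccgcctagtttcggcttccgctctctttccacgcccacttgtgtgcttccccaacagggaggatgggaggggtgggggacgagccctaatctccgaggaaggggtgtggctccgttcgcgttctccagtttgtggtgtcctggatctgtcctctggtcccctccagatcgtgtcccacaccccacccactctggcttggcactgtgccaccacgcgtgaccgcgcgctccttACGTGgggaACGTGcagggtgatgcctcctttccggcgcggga
Pdk1, first of its windows, chr2:71872974-71873273, plus strand: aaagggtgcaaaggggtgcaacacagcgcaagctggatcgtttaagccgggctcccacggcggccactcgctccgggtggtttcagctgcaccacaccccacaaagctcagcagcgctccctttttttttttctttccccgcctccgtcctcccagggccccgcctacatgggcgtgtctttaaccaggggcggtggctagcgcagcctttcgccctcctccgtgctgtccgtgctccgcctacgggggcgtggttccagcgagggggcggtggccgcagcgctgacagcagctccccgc
Ldha, first of its windows, chr7:46845554-46845853, plus strand: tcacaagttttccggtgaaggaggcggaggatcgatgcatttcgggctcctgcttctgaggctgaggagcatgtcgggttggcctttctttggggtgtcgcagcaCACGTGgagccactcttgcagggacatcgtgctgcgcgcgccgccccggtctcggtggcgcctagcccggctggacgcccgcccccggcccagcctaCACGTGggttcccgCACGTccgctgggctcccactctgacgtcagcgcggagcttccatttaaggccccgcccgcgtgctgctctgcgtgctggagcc
ACGTG and CACGT are in neither the Hkdc1 window nor the first Hk1 window, and in neither of the 2 Pdk1 windows of the table. The second Hk1 window, whose start lies 39487 bases downstream of the gene's outer end, has 2 matches, and the Ldha window shown has 5 counted on both strands, while the second Ldha window has 0. The table matched 33 of the 35 members, with 48 windows. ACGTG or its reverse complement was in 25 of these 48 windows (52.1%) and in 6447 of all 32851 promoter windows of the same length (19.6%). All members passed the filter on low counts, whereas the full set of windows was not limited to such genes. It was not matched to the members in base makeup either. A match of letters is no measure of binding.

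Levels spanned more than 2 orders of magnitude. Per kilobase of exon and averaged over the 12 libraries, the aldolase gene Aldoa stood highest at 266 CPM per kb. It was followed by the neuronal enolase gene Eno2 at 137, the pyruvate kinase gene Pkm at 129, Ldhb at 123 and the triosephosphate isomerase gene Tpi1 at 114 CPM per kb. The lowest were Hkdc1 at 2.48, the glycogen branching enzyme gene Gbe1 at 2.15, Hk2 at 1.04, the lactate exporter gene Slc16a3 at 0.781 and the liver-type glycogen phosphorylase gene Pygl at 0.750 CPM per kb. Hk1 was the main hexokinase transcript at 35.2 CPM per kb. The brain-type phosphorylase gene Pygb, at 28.4 CPM per kb, was far above the muscle-type Pygm at 4.70 and Pygl. Slc2a3, the transporter known as neuronal, and Slc2a1, known from the blood-brain barrier and glia, were close to each other at 26.8 and 24.9 CPM per kb.

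**Figure D1:**
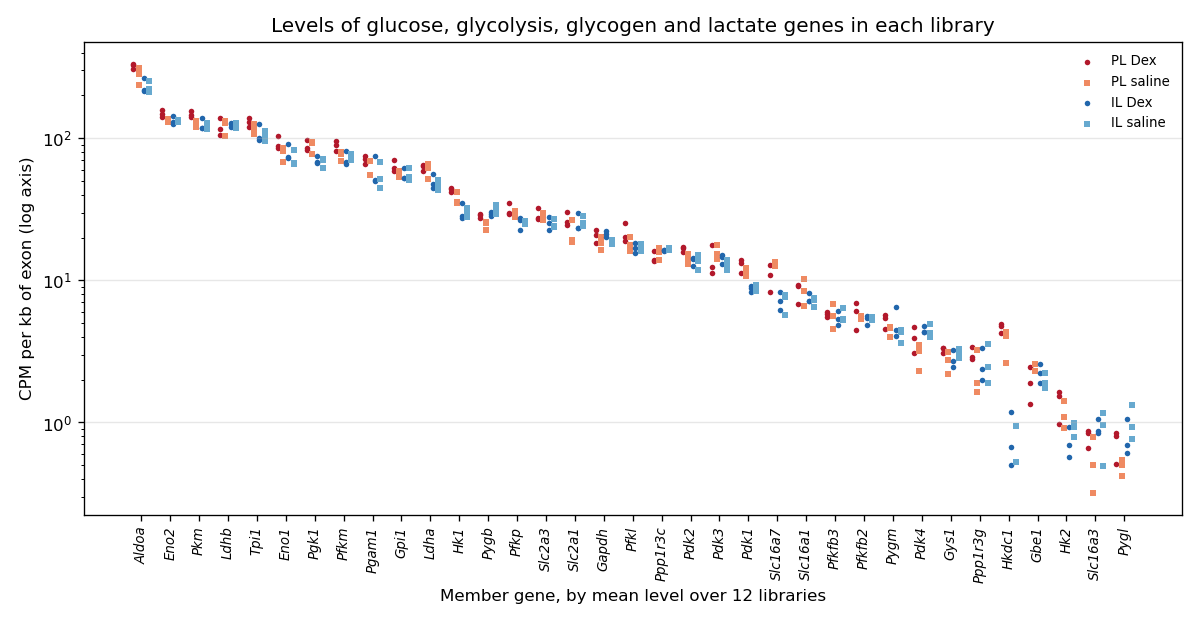
Level of each of the 35 genes in every library, in CPM per kilobase of exon on a log axis, with genes ordered by their mean over 12 libraries. Points are single libraries, coloured by group, with PL Dex at the left of each gene; the points of Hkdc1 separate by region, with PL libraries above IL libraries.

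Region was the contrast in which members differed. After Dex, 6 of 35 members were called higher in PL than in IL and 0 lower at an edgeR FDR under 0.05, against 7.34% of all genes tested in either direction (3.8% higher and 3.54% lower). The 6 were Hkdc1, Pdk1, Hk1, Aldoa, Slc16a7 and Hk2. After saline, 9 of 35 were called, 6 higher in PL (Hkdc1, Slc16a7, Pgk1, Pdk1, Ldha and Hk1) and 3 lower (Pygb, Pygl and Pdk4), against 18.7% of all genes tested (9.97% higher and 8.7% lower). The median log2 difference over the 35 members was 0.21 after Dex, with 26 positive (48.6% of all genes), and 0.07 after saline, with 24 positive (47.7% of all genes). Over all genes tested the medians were -0.0098 after Dex and -0.02 after saline. Within batches 1 to 3 the member medians were 0.26, 0.38 and 0.06 after Dex and 0.06, 0.09 and 0.05 after saline. Higher in PL in both comparisons were 4 members and 2.93% of all genes tested, and lower in both were 0 members and 2.59% of all genes.

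These counts rest on few libraries and on the correction for GC content. Without IL Dex library 2, 3 members were called after Dex. Without IL saline library 2, 3 were called after saline, and 4 were called without IL saline library 1 or without PL saline library 2. With GC content corrected in each library, 12 members were called after Dex, all higher in PL (background 9.55%), and 15 after saline, 13 higher and 2 lower (background 13.6%). After that correction the median over members in the saline comparison was 0.23. Scaled by library totals alone, 7 members were called after saline, 3 higher and 4 lower in PL, so the balance of directions turned round. The member median was then -0.04, while the median of all genes was shifted by -0.11 to -0.14, and the calls over all genes were 1255 higher and 2755 lower, against 1996 and 1741 with TMM.

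**Figure D2:**
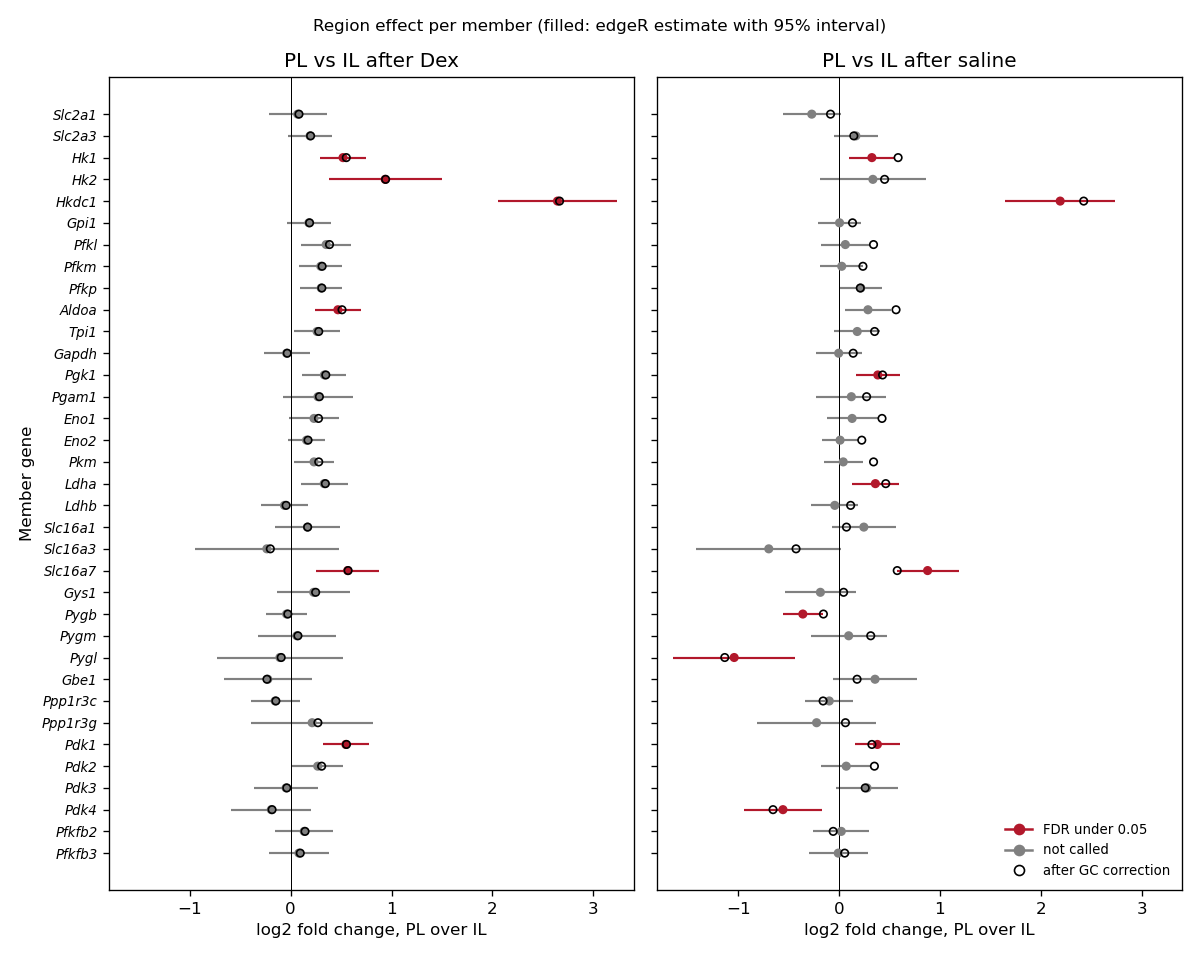
Log2 fold change of PL over IL for each member after Dex (left) and after saline (right), with filled points and lines for the edgeR estimate and its 95% interval, red where the FDR is under 0.05, and open circles after GC correction. Hkdc1 stands farthest to the right in both panels, at 2.65 after Dex and 2.19 after saline.

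Of the 3 hexokinase genes, whose products trap glucose in the cell, 3 were called after Dex and 2 after saline. The shares of all genes tested were 7.34% and 18.7%. Hkdc1 had 25.3, 24.4 and 22.0 CPM in PL Dex libraries and 13.5, 22.1 and 20.8 CPM in PL saline libraries. In IL it had 6.04, 3.44 and 2.57 CPM after Dex and 4.84, 2.69 and 4.86 CPM after saline. Every PL library lay above every IL library, and the lowest PL value was 13.5 CPM while the highest IL value was 6.04 CPM. The log2 difference was 2.65 (SE 0.282) after Dex (edgeR FDR 1.94e-05), rank 11 by p among all 20015 genes, and 2.19 (SE 0.260) after saline (edgeR FDR 2.67e-05), rank 43. It passed the threshold whichever library was left out and after GC correction (2.67 after Dex, 2.43 after saline). Within batches 1 to 3 its log2 ratio of PL to IL was 2.07, 2.83 and 3.10 after Dex and 1.48, 3.04 and 2.10 after saline. Per kilobase, Hkdc1 made up 9.44 ± 0.287% of hexokinase transcripts in PL Dex, 8.64 ± 1.83% in PL saline, 2.55 ± 1.33% in IL Dex and 2.53 ± 0.663% in IL saline (SD, n = 3 each).

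Hk1, the main brain hexokinase, had 378, 375 and 355 CPM in PL Dex libraries against 233, 242 and 298 CPM in IL Dex libraries. After saline it had 296, 303 and 358 CPM in PL against 249, 238 and 277 CPM in IL. The regions did not overlap within either treatment. The log2 difference was 0.52 (SE 0.108) after Dex (edgeR FDR 0.00462), called with each library left out in turn, and 0.33 (SE 0.108) after saline (edgeR FDR 0.0399). The saline call was lost without IL saline library 1 (FDR 0.118) or 2 (0.160), and without PL saline library 2 (0.0693) or 3 (0.177). It was also lost with library totals alone (0.142) and with no low-count filter (0.0577). After GC correction the saline difference of Hk1 was 0.59 (edgeR FDR 8.95e-05). Hk2, an inducible hexokinase, had 9.22, 9.83 and 5.81 CPM in PL Dex libraries against 5.50, 3.44 and 4.14 CPM in IL Dex libraries, with no overlap. The log2 difference was 0.94 (SE 0.270) (edgeR FDR 0.0366), at a level near the bottom of the list. That call was lost with library 2 or 3 of IL Dex left out, and with library 1 or 2 of PL Dex left out (FDR 0.0957 to 0.168), and also with library totals alone (0.0653) and with only the groups compared in the fit (0.0817).

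Among the transporters that carry lactate and pyruvate, Slc16a7 (MCT2, known as the high-affinity neuronal importer; chr10:125219270-125389465) was the member called in both comparisons. It had 129, 98.3 and 151 CPM in PL Dex libraries and 98.7, 73.0 and 84.7 CPM in IL Dex libraries, where PL library 2 lay just under IL library 1. After saline it had 159, 153 and 149 CPM in PL against 93.2, 67.8 and 90.3 CPM in IL, with no overlap. The log2 difference was 0.57 (SE 0.149) after Dex (edgeR FDR 0.0242) and 0.88 (SE 0.147) after saline (edgeR FDR 5.53e-04). The saline call stood with every library left out, whereas the Dex call was lost without library 2 (FDR 0.138) or 3 (0.0714) of IL Dex, and without library 1 (0.0759) or 3 (0.129) of PL Dex. Slc16a7 has the lowest GC content of the members, 37.7%, and its saline difference was 0.58 after GC correction (edgeR FDR 0.00562).

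Slc16a1 (MCT1, found on endothelium and glia) was not called in either region comparison. It had 40.1, 30.4 and 40.8 CPM in PL Dex, 37.5, 45.1 and 29.4 in PL saline, 31.8, 35.9 and 31.6 in IL Dex and 28.7, 32.4 and 33.2 in IL saline libraries, and all 4 groups overlapped in range.

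Pyruvate dehydrogenase kinases phosphorylate and switch off the pyruvate dehydrogenase complex, and their genes were called in opposite directions. Pdk1 (chr2:71873224-71903858) had 87.6, 103 and 108 CPM in PL Dex libraries against 68.9, 64.3 and 71.2 CPM in IL Dex libraries. After saline it had 83.5, 95.7 and 89.8 CPM in PL against 68.7, 65.6 and 72.5 CPM in IL. All PL values lay above all IL values. The log2 difference was 0.55 (SE 0.108) after Dex (edgeR FDR 0.00305), called with each library left out in turn, and 0.38 (SE 0.106) after saline (edgeR FDR 0.0172), lost without IL saline library 1 (FDR 0.0564) or 2 (0.0829) or PL saline library 2 (0.0905), and with library totals alone (0.0725). With GC content corrected, the Pdk1 difference was 0.55 after Dex (edgeR FDR 9.01e-04) and 0.33 after saline (edgeR FDR 0.0257). Pdk4, the isoform that rises with fasting in other tissues, had 8.02, 11.1 and 12.4 CPM in PL saline libraries against 15.1, 14.1 and 17.4 CPM in IL saline libraries. It was lower in PL in all of them, with a log2 difference of -0.56 (SE 0.187) (edgeR FDR 0.0427), and -0.65 after GC correction (edgeR FDR 0.0232). Its call was lost when any 1 library was left out other than PL saline library 3 (FDR 0.0657 to 0.166). After Dex, Pdk4 had 16.5, 10.8 and 13.8 CPM in PL and 16.7, 15.3 and 15.3 CPM in IL, and the groups overlapped (log2 difference -0.19 (SE 0.190), edgeR FDR 0.652).

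**Figure D3:**
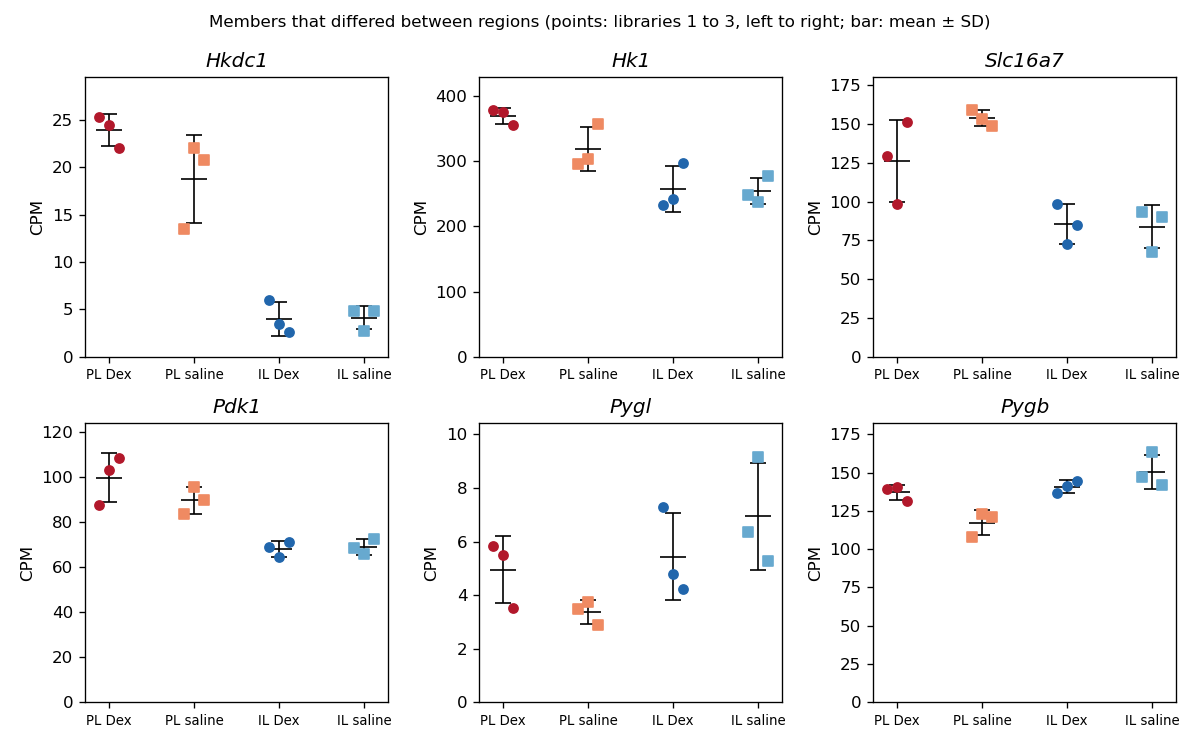
CPM in each library for 6 members called between regions, with libraries 1 to 3 from left to right in each group and bars for the mean ± SD of 3 libraries; axes start at 0. Hkdc1, Hk1 and Pdk1 are higher in both PL groups than in both IL groups, whereas Pygl and Pygb are lower in PL saline than in IL saline libraries and overlap between the Dex groups.

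Glycogen phosphorylases release glucose units from glycogen, and the 2 called genes were lower in PL after saline. Pygb had 108, 123 and 121 CPM in PL saline libraries against 147, 163 and 142 CPM in IL saline libraries, with no overlap and a log2 difference of -0.36 (SE 0.0957) (edgeR FDR 0.0131). After GC correction it was -0.15 and no longer called (edgeR FDR 0.244), and the call was also lost without IL saline library 2 (FDR 0.0873) or PL saline library 1 (0.0579). Pygl had 3.48, 3.73 and 2.89 CPM in PL saline libraries against 6.36, 9.17 and 5.28 CPM in IL saline libraries, with no overlap and a log2 difference of -1.04 (SE 0.292) (edgeR FDR 0.0175), and -1.13 after GC correction (edgeR FDR 0.0117). Its call was lost without IL saline library 2 (FDR 0.117) or PL saline library 3 (0.0652). After Dex neither was called, with log2 differences of -0.04 for Pygb and -0.11 for Pygl. Of the other 5 glycogen genes, which encode glycogen synthase (Gys1), the muscle phosphorylase, the branching enzyme and the phosphatase subunits Ppp1r3c and Ppp1r3g, none was called in either comparison. Gys1 had 16.0, 16.1 and 14.9 CPM in PL Dex, 10.4, 13.1 and 15.0 in PL saline, 13.0, 15.4 and 11.9 in IL Dex and 15.8, 14.7 and 13.6 in IL saline libraries.

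Within glycolysis itself, Aldoa, Pgk1 and Ldha were each called in 1 of the comparisons. Aldoa had 898, 970.2 and 953 CPM in PL Dex libraries against 635, 629 and 773 CPM in IL Dex libraries, with no overlap and a log2 difference of 0.47 (SE 0.111) (edgeR FDR 0.0113), lost without IL Dex library 1 (FDR 0.0581) or 2 (0.0762). With GC content corrected, the Aldoa difference after Dex was 0.51 (edgeR FDR 0.00142). After saline its difference was 0.29 (edgeR FDR 0.0752), and with batch number as a block it was called (FDR 0.0255). Pgk1, phosphoglycerate kinase, had 175, 210.1 and 208 CPM in PL saline libraries against 139, 157 and 159 CPM in IL saline libraries, with no overlap and a log2 difference of 0.38 (SE 0.104) (edgeR FDR 0.0144), lost without IL saline library 1 (FDR 0.0792) or PL saline library 2 (0.0769) or 3 (0.0543). With GC content corrected, the saline difference of Pgk1 was 0.43 (edgeR FDR 0.00481). After Dex its uncorrected difference was 0.33 (edgeR FDR 0.0588, and 0.0274 with the block).

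Ldha, the subunit known for making lactate, had 171, 204 and 218 CPM in PL saline libraries against 142, 153 and 167 CPM in IL saline libraries, with no overlap and a log2 difference of 0.36 (SE 0.111) (edgeR FDR 0.0284). The call was lost without IL saline library 1 (FDR 0.122) or 2 (0.0873), or PL saline library 2 (0.101) or 3 (0.119). It was also lost with library totals alone (0.0956). After GC correction the saline difference of Ldha was 0.46 (edgeR FDR 0.00308). After Dex, Ldha had 195, 209.8 and 215 CPM in PL against 149, 156 and 186 CPM in IL, with no overlap, a log2 difference of 0.33 (SE 0.112) and an edgeR FDR of 0.0784 (0.0199 with the block). Ldhb, the subunit of lactate-oxidising forms, had 166, 181 and 219 CPM in PL Dex, 162, 201 and 206 in PL saline, 189.6, 199 and 202 in IL Dex and 184, 201 and 201 in IL saline libraries, with overlap between regions. The Ldha share of Ldha plus Ldhb transcripts, per kilobase, was 34.3 ± 2.23% in PL Dex, 33.1 ± 0.538% in PL saline, 28.2 ± 1.88% in IL Dex and 27.2 ± 0.938% in IL saline (SD, n = 3 each), and was higher in every PL library than in every IL library.

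With the block, Pfkp, a phosphofructokinase gene, was also called after Dex (log2 difference 0.30, edgeR FDR 0.0373, against 0.0701 without it), which brought the blocked counts to 9 after Dex (background 8.63%) and 10 after saline (background 20.9%). By DESeq2, 10 members were called after Dex (background 8.97%). Pfkp had 401, 469 and 390.4 CPM in PL Dex, 373, 414 and 402 in PL saline, 302, 354 and 365 in IL Dex and 334, 341 and 349 in IL saline libraries. The glucose transporter genes and the PFKFB regulator genes, whose enzymes set the level of a phosphofructokinase activator, had no call in either region comparison. Pfkfb3 had 45.4, 41.6 and 44.0 CPM in PL Dex, 34.2, 42.2 and 51.4 in PL saline, 40.3, 36.9 and 46.2 in IL Dex and 39.7, 40.5 and 48.5 in IL saline libraries.

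Cell type markers moved with region beside these results. Of 6 cortical excitatory neuron markers, 5 were called higher in PL after Dex and 4 after saline. Their summed level was 4435 to 4898 CPM in PL Dex, 3856 to 4743 in PL saline, 3001 to 3855 in IL Dex and 3015 to 3655 in IL saline libraries. Of 7 striatal neuron markers, 3 were called lower in PL after Dex and 4 after saline, with sums of 149 to 279, 122 to 476, 739 to 1205 and 753 to 1001 CPM in the same order of groups. Ependymal and choroid plexus markers were called lower in PL for 2 of 5 after Dex and 3 of 5 after saline, at sums of 3.65 to 7.38, 4.99 to 7.10, 10.1 to 23.2 and 15.4 to 22.1 CPM. Of 10 astrocyte markers, 0 were called after Dex and 2 after saline, in opposite directions, with sums of 5404 to 7237, 6654 to 7370, 5894 to 6281 and 5673 to 6049 CPM. The 6 general neuron markers include Eno2, which is also a member. Of these markers, 2 were called higher in PL after Dex and 4 after saline. Their sums were 5920 to 7895, 7238 to 7585, 5109 to 5351 and 4831 to 5149 CPM, higher in every PL library. Interneuron marker sums were lower in every PL library, at 464 to 572, 531 to 747, 820.4 to 1104 and 765 to 1027 CPM. The single genes went both ways. Of the 7 genes 1 was called higher in each comparison, and 3 lower after Dex and 2 after saline. The log2 difference was positive for 4 of the 7 in each comparison, with medians of 0.13 after Dex and 0.22 after saline. Oligodendrocyte precursor sums were also lower in every PL library, at 181 to 205, 186 to 198, 214 to 237 and 223 to 238 CPM, with 1 of 4 genes called lower after Dex and 2 after saline. In the lists for oligodendrocytes, microglia, endothelium, mural cells with meningeal fibroblasts, and erythroid cells, 0 genes were called after Dex and at most 1 per list after saline. No marker in these lists was at 0 throughout. The part of cell makeup in the region differences was not tested.

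Dex against saline in PL gave no call among the members. The number called was 0 of 35 by edgeR and 0 by DESeq2, against 4 of 20015 genes by edgeR (0.02%) and 0.615% by DESeq2. At an unadjusted p under 0.05 there were 5 members, Pkm, Slc2a1, Pygb, Pfkl and Pfkm, against 13.9% of all genes. The log2 fold change was positive for 29 of 35 members and for 49.7% of all genes, and its median was 0.21 over members and -0.0025 over all genes. It ranged from -0.38 for Gbe1 to 0.57 for Slc16a3, which overlaps Csnk1d as given above. For 6 members, Pfkm, Eno1, Eno2, Pkm, Pygb and Pdk2, all PL Dex libraries lay above all PL saline libraries, which was so for 7.57% of all genes.

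Pkm had 725, 777 and 706 CPM in PL Dex libraries against 603, 596 and 662 CPM in PL saline libraries. The groups did not overlap, and the log2 fold change was 0.25 (SE 0.0937), with a 95% interval from 0.05 to 0.44 and an edgeR FDR of 0.278. Slc2a1 had 85.9, 107 and 89.5 CPM in PL Dex libraries against 67.5, 65.7 and 92.5 CPM in PL saline libraries, where saline library 3 lay above Dex libraries 1 and 3 (log2 fold change 0.32 (SE 0.139), edgeR FDR 0.316). Pygb had 139, 141 and 131 CPM in PL Dex libraries, all above the PL saline values given above (log2 fold change 0.22 (SE 0.0966), edgeR FDR 0.318). Hk1 and Gys1 had log2 fold changes of 0.21 (SE 0.108) and 0.28 (SE 0.173), with edgeR FDRs of 0.384 and 0.480. Pdk4 had 0.38 (edgeR FDR 0.390), set mostly by batch 1, where the log2 ratio was 1.04, against -0.03 and 0.15 in batches 2 and 3.

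GC content moved with this comparison and with PL against IL after saline. Across 19577 genes the Spearman correlation of GC content with the log2 fold change was 0.541 in PL and -0.0354 in IL. For PL against IL it was -0.429 after saline and -0.0526 after Dex, and for the difference of the Dex effects 0.482. These values describe genes that share the same libraries. The slope of a library's log2 level on GC content, per 10 percentage points, was 0.119, 0.0969 and -0.0672 for PL Dex (libraries 1 to 3) and -0.251, -0.305 and -0.0705 for PL saline. In IL, it was -0.00899 to 0.190 after Dex and 0.0284 to 0.133 after saline. The members are GC-rich, with a median of 52.8% against 48.4% for all genes with a value. The 29 members with a positive fold change had a median of 54.0%, and the 6 negative ones 44.6%. Among members at 55% GC and above, the median log2 fold change was 0.26 for 10 members and 0.25 for all genes of that range. Between 50% and 55% it was 0.19 for 13 members and 0.12 for all genes, between 45% and 50% 0.07 for 8 members and -0.02, and below 45% -0.15 for 4 members and -0.20.

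After GC correction, 24 of 35 members were positive against 51.8% of all genes, the median was 0.04 over members, and 0 were called (background 0.005%). Pkm then stood at 0.0045, Hk1 at -0.0022, Gys1 at 0.08, Gapdh at 0.04 (0.17 before), Pygb at 0.05 and Slc2a1 at 0.16 on the log2 scale. Pdk4 at 0.48 and Pygl at 0.65 (0.55 before), which have low GC content, did not come closer to 0, with edgeR FDRs of 0.815 and 0.830.

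**Figure D4:**
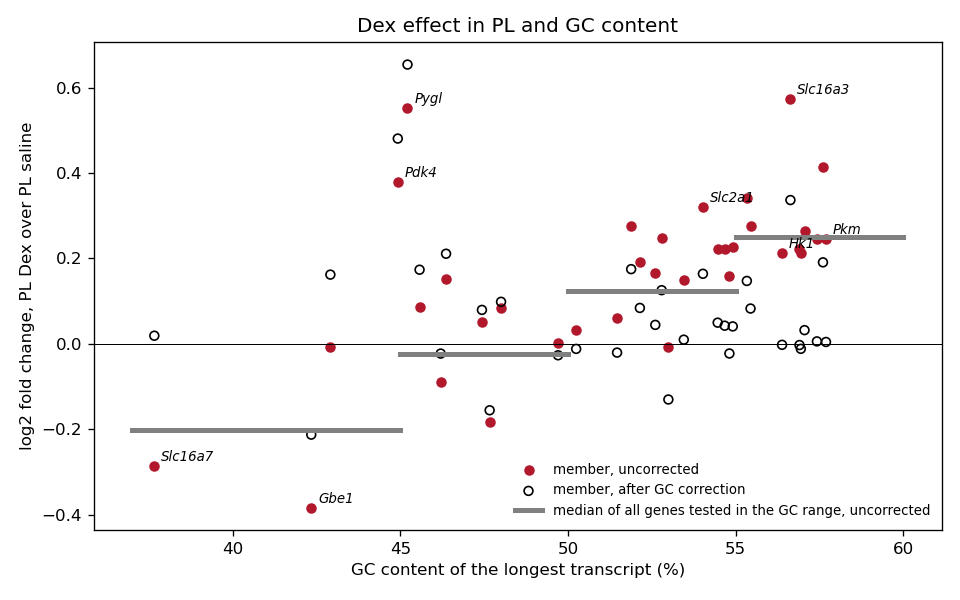
Log2 fold change of PL Dex over PL saline for each member against the GC content of its longest transcript in percent, before (filled) and after (open) GC correction; grey lines are medians of all genes tested in 4 GC ranges before correction. Filled points follow the grey lines, from -0.20 below 45% GC to 0.25 at 55% and above, and most open points lie close to 0.

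Within batches, the PL Dex to PL saline ratio of CPM was positive for 31 of 35 members in batch 1, 26 in batch 2 and 20 in batch 3, with log2 medians of 0.21, 0.27 and 0.04. In batch 3 the GC slopes of the Dex and saline libraries were close, -0.0672 and -0.0705.

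**Figure D5:**
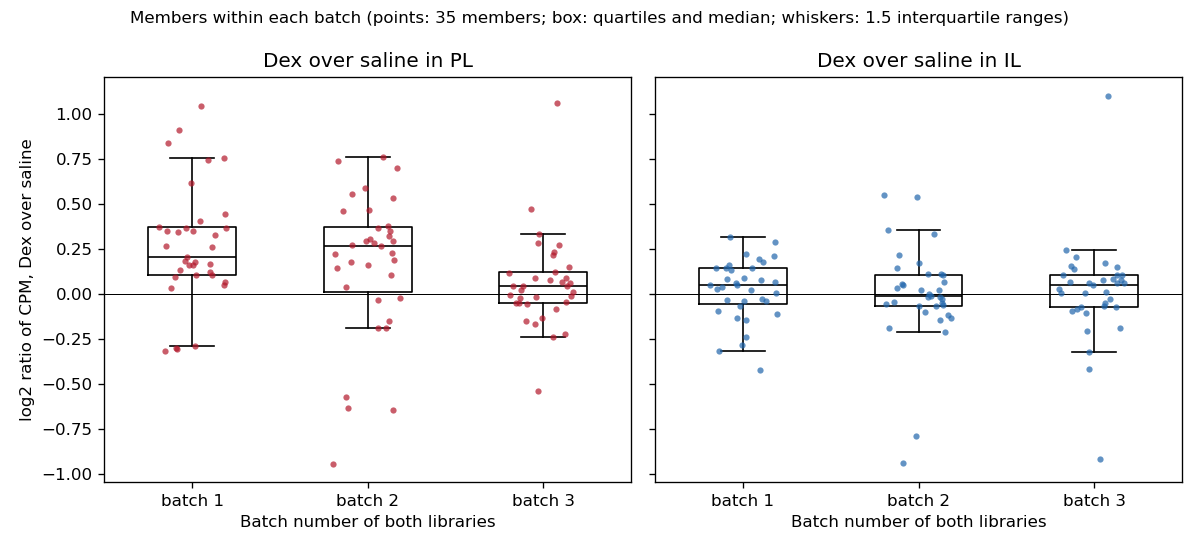
Log2 ratio of CPM, Dex over saline, for the 35 members within each batch in PL (left) and IL (right); each point is a gene, boxes show quartiles and the median, and whiskers reach 1.5 interquartile ranges. In PL the medians are 0.21, 0.27 and 0.04 in batches 1 to 3, and in IL they are 0.05, -0.01 and 0.05.

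In IL, Dex against saline gave no call among the members either. No member was called by edgeR or DESeq2 (0 of 35, against 0% of all genes by either), and 0 members had an unadjusted p under 0.05 against 1.06% of all genes. The log2 fold change was positive for 21 of 35 members and 51.8% of all genes, with a member median of 0.02 (-0.0031 with library totals alone) and a range from -0.38 for Pygl to 0.26 for Pygm. Gapdh, the glyceraldehyde phosphate dehydrogenase gene often used as a reference, had the smallest p. It had 87.2, 83.9 and 91.2 CPM in IL Dex libraries against 74.6, 74.3 and 79.0 CPM in IL saline libraries. All Dex values lay above all saline values, as for 3.79% of all genes, with a log2 fold change of 0.20 (SE 0.109), an unadjusted p of 0.0766 and an edgeR FDR of 1.000. In PL, Gapdh had 85.7, 94.0 and 75.6 CPM after Dex and 75.6, 67.9 and 83.9 CPM after saline, with overlap. Pygm had 14.4, 20.9 and 13.1 CPM in IL Dex libraries against 11.7, 14.4 and 13.9 CPM in IL saline libraries, and Pygl had 7.28, 4.78 and 4.23 CPM in IL Dex libraries against the IL saline values given above; both overlapped.

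The difference between the Dex effects, PL minus IL, was not called for any member (0 of 35, 0% of all genes), and 2 members, Pygb and Pygl, had an unadjusted p under 0.05, against 6.73% of all genes. Its median over members was 0.15, positive for 25 of 35 (50% of all genes), and 0.04 after GC correction. Pygb had a difference of 0.32 (SE 0.136) and Pygl one of 0.93 (SE 0.418), both with an edgeR FDR of 0.716. Gbe1 had 10.2, 7.23 and 13.2 CPM in PL Dex and 12.4, 13.9 and 13.7 CPM in PL saline libraries, and 10.1, 13.8 and 11.9 CPM in IL Dex and 11.9, 9.37 and 10.1 CPM in IL saline libraries, a difference of -0.58 (SE 0.290) (edgeR FDR 0.716). Slc2a3 had 200.4, 234 and 196 CPM in PL Dex, 193, 199.8 and 215 in PL saline, 183, 164 and 203 in IL Dex and 175, 171 and 195 in IL saline libraries, and the Dex and saline ranges overlapped in both regions.

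Of 81 other tested genes of the same pathways, which cover further transporters, paralogs, regulators, pyruvate dehydrogenase, the pentose phosphate route, glycogen enzymes and redox shuttles, 0 were called for Dex in PL, 0 in IL and 0 for the difference of the effects. After Dex, 7 were higher and 0 lower in PL than in IL, and after saline 11 were higher and 4 lower, shares near the 7.34% and 18.7% of all genes called in these comparisons. Pgm2l1, which makes the cofactor glucose bisphosphate, differed by 0.96 (SE 0.134) on the log2 scale after Dex (edgeR FDR 2.16e-04) and 1.29 (SE 0.135) after saline (8.80e-06). Prkaa2, a catalytic subunit of the energy sensor AMPK, differed by 0.63 (SE 0.117) after Dex (edgeR FDR 0.00172) and 1.04 (SE 0.116) after saline (1.19e-05). Both calls of both genes stood with each library left out.

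Emb, embigin, a chaperone of monocarboxylate transporters, differed by 0.59 after Dex, lost without library 1 (FDR 0.0646) or 3 (0.135) of IL Dex or library 3 (0.146) of PL Dex, and 0.74 after saline, where the call stood with each library left out. The glycerol phosphate dehydrogenase genes Gpd1l and Gpd2 were among the 5 with the smallest p once each, Gpd1l at 0.49 after Dex (edgeR FDR 0.00542) and Gpd2 at 0.52 after saline (edgeR FDR 0.00146). Slc2a6, a further glucose transporter family gene, stood at 0.64 after Dex (edgeR FDR 0.0177), lost without library 2 (FDR 0.0896) or 3 (0.0630) of IL Dex or library 2 (0.0616) of PL Dex. Gaa, the lysosomal glucosidase that degrades glycogen, was lower in PL after saline at -0.59 (edgeR FDR 0.00175), and stood at -0.25 after GC correction (edgeR FDR 0.0869).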

How the data were processed

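The authors deposited whole-number counts of reads per gene, with no normalization, for polyA RNA of 12 labelled libraries. Per the file headers, they were made with featureCounts 2.0.1 on exons, in paired-end mode and without strand, against the annotation of release 98 on GRCm38. HISAT2, Trim Galore, bcl2fastq and SAMtools 1.8 are named per the submitters' processing notes, which also name mm39; coordinates here are those of GRCm38, as in the table. Another 12 count columns matched no sample and were not used.

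Totals ran from 5419187 to 16530596 counts, which sets the counting error of low genes; the lowest member count in a library was 14, for Slc16a3. With edgeR 4.0.16 in R 4.3.3, filterByExpr on the 4 groups kept 20015 genes, library sizes were scaled by TMM, and a robust quasi-likelihood model with 1 mean per group was fitted to all 12 libraries (8 residual degrees of freedom). P-values were two-sided and adjusted by the Benjamini-Hochberg method over all genes tested in each of 5 comparisons (FDR, threshold 0.05). CPM use the TMM sizes. Symbols were taken from the reference gene names. GC correction fitted a lowess curve (span 0.3) of each library's log2 deviation on the GC content of the longest transcript and entered it as an offset. On data simulated for Dex against saline in PL over 20015 genes, 13% of 100 genes changed by 0.5 on the log2 scale and 80% of 100 changed by 1 were called. The simulated libraries had no GC slopes and no batch or region differences. The changed genes were drawn without those of low level, so these shares hold for that setting only.

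The members and lists were chosen with earlier results of these data known. Genes described with values per library are those past the threshold in any comparison, the 3 with the smallest p in each, and 13 set by role (Slc2a1, Slc2a3, Hk1, Pfkp, Gapdh, Pkm, Ldha, Ldhb, Slc16a1, Gys1, Pygb, Pdk4 and Pfkfb3); of other pathway genes, up to 5 called ones with the smallest p in each comparison are named. Alternatives were DESeq2 1.42.0 and its size factors, library totals alone, no low-count filter, only the groups compared, batch number as a block, GC correction, and leaving out each library. Same-numbered libraries share a batch number in the labels. This was taken as the pairing for the ratios within batches and for the block, while the main fit used no pairing. Correlations of deviations from group means were 0.284 to 0.337 for same-numbered libraries of IL Dex and IL saline, and -0.202 to -0.105 for differently numbered ones. In the same order they were 0.00857 to 0.108 and -0.133 to 0.0711 between PL Dex and PL saline. Between PL Dex and IL Dex they were -0.0933 to 0.0377 and -0.0708 to 0.099. Between PL saline and IL saline they were 0.0265 to 0.191 and -0.124 to 0.0547. No libraries of a group agreed within sampling noise. P-values set a difference between group means against the spread among the libraries of a group, which may be technical.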

Additional observations from a re-analysis of the deposited data

How the results depend on the processing

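The counts of members called for Dex in PL, for Dex in IL and for the difference of the effects were 0 of 35 under all alternatives run. In PL, the median log2 fold change of 0.21 over members became 0.043 with GC correction, 0.044 with the replicate block as well, and 0.060 with GC correction and PL Dex library 3 left out, an alternative chosen after seeing the data; leaving out 1 library gave 0.14 to 0.24. Hk1 in that comparison turned to -0.0022 with GC correction, -0.0020 with the replicate block as well, and -0.035 with GC correction and PL Dex library 3 left out, where Pkm was -0.030; these sizes are within their errors. In IL, leaving out 1 library gave medians from -0.047 to 0.087.

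For PL against IL after Dex, 6 members became 10 with DESeq2, 12 with GC correction, 15 with GC correction and the replicate block, and 3 to 8 with 1 library left out; the replicate block alone gave 9. After saline, 9 became 15 with GC correction, 17 with GC correction and the replicate block, and 3 to 8 with 1 library left out, and the block alone gave 10. The saline median of 0.07 became -0.042 with library totals alone, 0.049 with no low-count filter, 0.23 with GC correction, also with the block, and 0.032 to 0.13 with 1 library left out. The replicate block added Pfkp, Pgk1 and Ldha after Dex and Aldoa after saline and changed no other call of a member. Of the settings for single members, 377 kept direction and side of the threshold, 42 lost the call (33 with 1 library left out) and 4 reversed, as given above. The cause of these shifts was not tested beyond the construction of each setting. Depth limits Slc16a3, Pygl, Hk2 and Hkdc1 most.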

Other observations

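Shares of isoforms within a role, per kilobase, do not depend on the scaling of libraries, but they were not corrected for GC content. These values carry no test (mean ± SD, n = 3 libraries each). GC content is 54.0% for Slc2a1 and 47.4% for Slc2a3, and 37.7% for Slc16a7, 42.9% for Slc16a1 and 56.6% for Slc16a3. Slc2a1 made up 48.0 ± 0.906% of Slc2a1 plus Slc2a3 transcripts in PL Dex, 43.2 ± 3.50% in PL saline, 50.1 ± 1.85% in IL Dex and 51.0 ± 1.06% in IL saline. In PL the Dex libraries had 47.0, 48.6 and 48.5% and the saline libraries 41.9, 40.5 and 47.1%, so the groups overlapped through saline library 3. The GC slopes given above were 0.119, 0.0969 and -0.0672 for these Dex libraries and -0.251, -0.305 and -0.0705 for the saline ones. The part of GC content in these shares was not tested. Slc16a7 made up 53.5 ± 2.49% of the transcripts of the 3 monocarboxylate transporters in PL Dex, 59.5 ± 4.80% in PL saline, 46.1 ± 5.07% in IL Dex and 46.8 ± 5.23% in IL saline. Pdk1 made up 27.3 ± 2.95% of pyruvate dehydrogenase kinase transcripts in PL Dex, 25.9 ± 1.18% in PL saline, 21.3 ± 1.40% in IL Dex and 22.4 ± 1.37% in IL saline, and was higher in every PL library than in every IL library. The share of Pfkp among the phosphofructokinases was 22.2 ± 0.609% in PL Dex, 24.0 ± 0.872% in PL saline, 22.3 ± 1.91% in IL Dex and 21.8 ± 0.769% in IL saline.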
